A study of Mus musculus with 24 samples.

Results

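Epithelial and neural regulators of alternative splicing, encoded by 10 genes, were followed through a mouse optic vesicle (OV) organoid time course: Esrp1, Esrp2, Ptbp1, Ptbp2, Rbfox1, Rbfox2, Rbfox3, Srrm4, Nova1 and Nova2. They were taken by gene symbol from a table of 49705 gene entries. Each of the 10 symbols matched exactly 1 entry, and all 10 were among the 21005 genes that reached 10 normalized counts in 3 or more libraries, on which every test was run. No member was listed at 0 in any library. The organoids came from the Rx-GFP K/I EB5 line, embryonic stem cells with GFP knocked into the Rax locus, so that GFP marks cells expressing this eye-field transcription factor. RNA was sequenced in 24 bulk libraries, 3 in each of 8 groups, and each library pooled cells from 24 organoids. The groups were all live sorted cells on days 0, 1, 2 and 3, GFP-negative and GFP-positive cells on day 4, and the same gates on day 5. By the study's methods the samples of days 4 and 5 were sorted into both gates, and the gates were tested here as independent groups. All groups shared this line and a culture of 4500 plated cells per organoid, no group carried another treatment, and Matrigel was present at 2% from day 1. The labels name supplemented GMEM with 1.5% KOSR, a serum replacement, as the differentiation medium, whereas the study's methods name a chemically defined medium for its initial organoids. The GFP-negative gate also held cells with low GFP. Day 3 was not split by GFP. A difference between day 3 and a day 4 gate therefore combines the change of day with the start of gating, and these cannot be told apart.

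Splicing regulators of this kind bind pre-messenger RNA near alternative exons and promote or block their inclusion. Esrp1 and Esrp2 maintain epithelial exon choices, for example in Fgfr2 and Cd44, and are known to be lost when epithelial cells become mesenchymal. Ptbp1 represses neural exons in non-neural cells, and its paralogue Ptbp2 takes over in neural progenitors and young neurons. Rbfox, Nova and Srrm4 proteins act on neural exons, including microexons in the case of Srrm4.

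The deposited values are counts per gene normalized with DESeq2, and they summed to between 39849111 and 51587535 per library. A single read was worth between 0.805 and 1.395 normalized counts, so a value of 10 rests on about as many reads and carries a large counting error. Day 0 replicate 1 stood apart: its rank correlations with the other day 0 libraries were 0.953 and 0.954, against 0.979 to 0.993 for the 22 other replicate pairs. The members' differences of day 3 and day 5 from day 0 that are printed below are therefore also given without that library. So are the numbers of list genes called in day 5 GFP-positive cells against day 0. Differences were tested with limma on log2(normalized count + 1), a scale on which the change of low genes is understated, and were called at the thresholds of the study, an adjusted p below 0.001 together with a log2 difference over 1.5 in either direction. A gene is described as rising or falling when its adjusted p was under 0.05, and whether it was also called is stated. The summed eye-field markers (Rax, Pax6, Lhx2, Six3 and Six6) lay between 54803.5 and 57306.6 in day 5 GFP-positive cells and between 8351.2 and 9093.9 in GFP-negative cells. In bulk libraries, fewer cells of a type and less RNA per cell cannot be told apart.

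**Figure D1:**
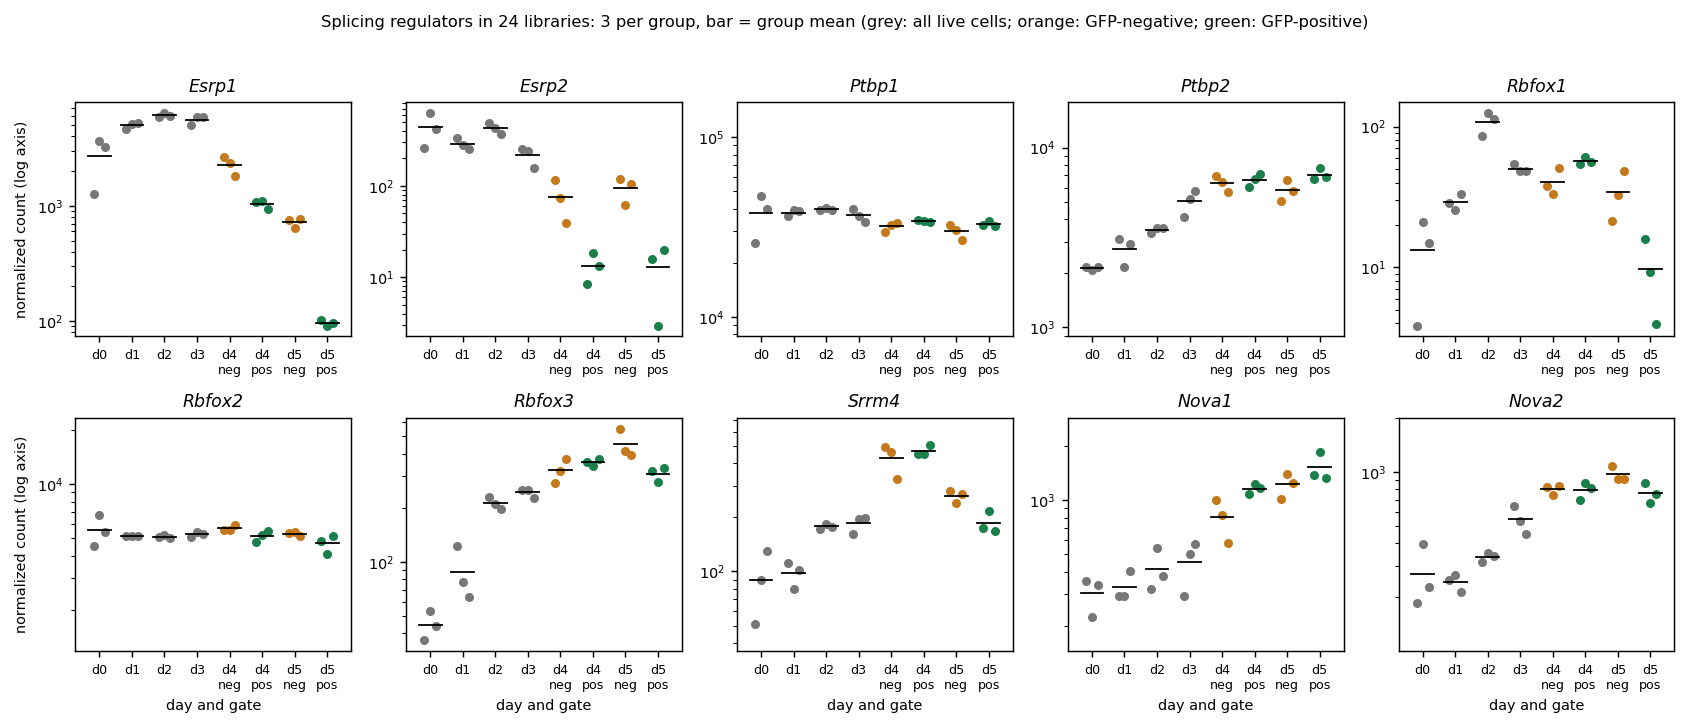
Normalized counts of each member (vertical log axes, 1 panel per gene) in every library, by day and gate; points are libraries and bars are means of 3. Esrp1 is lowest in day 5 GFP-positive cells, and Esrp2 in GFP-positive cells of both day 4 and day 5, which overlap. Ptbp2, Rbfox3, Nova1 and Nova2 are lowest on day 0 or day 1, and Rbfox1 peaks on day 2.

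Esrp1, which encodes the epithelial splicing regulatory protein 1 (chr4:11331933-11386783, minus strand, mm10), rose early and was then lost. Its 3 libraries held 1260.3, 3676.1 and 3235.7 normalized counts on day 0, and 5851.5, 6388.8 and 6063.9 on day 2. By day 5 they held 102.8, 91.7 and 96.9 in GFP-positive cells and 756, 646 and 775 in GFP-negative cells. The 2 gates did not overlap on either day, and every day 5 library was below every library of days 0 to 4. In order, the group means were 6101 ± 271 (SD, n = 3) on day 2, 5584 ± 525 on day 3, 5011 ± 292 on day 1, 2724 ± 1287 on day 0 and 2270.4 ± 410.2 in day 4 GFP-negative cells. They were followed by 1043 ± 96.1 in day 4 GFP-positive cells, 725 ± 69.8 in day 5 GFP-negative cells and 97.1 ± 5.56 in day 5 GFP-positive cells. Days 2, 3 and 1 overlapped as neighbours in this order, as did day 0 and day 4 GFP-negative cells.

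Esrp1 rose from day 0 to day 3 by 1.17 ± 0.25 (SE) on the log2 scale (adjusted p = 0.000531), which was not called. Without day 0 replicate 1 this rise was 0.69 ± 0.13 (adjusted p = 0.000155). From all live cells of day 3 to day 4 GFP-positive cells it fell by 2.42 (adjusted p = 7.61e-08, called). To day 4 GFP-negative cells it fell by 1.31 (adjusted p = 0.000581, not called). From day 4 to day 5 it again fell in GFP-positive cells, where the difference was -3.41 (adjusted p = 1.09e-08, called), its largest step between neighbouring times. In GFP-negative cells it fell by 1.63 over this step (adjusted p = 0.000126, called), a call that was lost without day 4 GFP-negative replicate 1 or 2 (adjusted p of 0.00161 and 0.00103) or day 5 GFP-negative replicate 2 (0.00135), and in a fit of only the groups compared (0.00118). Day 5 GFP-positive cells had 3.57% of the day 0 mean and 1.59% of the day 2 mean, a difference from day 0 of -4.65 ± 0.25 (adjusted p = 6.84e-13, called). Without day 0 replicate 1 it was -5.14. In day 5 GFP-negative cells the difference from day 0 was -1.77 (adjusted p = 2.74e-06, called). It was -2.25 without day 0 replicate 1 and called, -1.48 without day 0 replicate 2 and not called, and it was not called in the fit of only the groups compared (adjusted p = 0.00901).

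Esrp2 encodes the paralogue of Esrp1 (chr8:106130319-106136974, minus strand) and had a lower level. Per kilobase of the longest coding transcript, the day 0 mean was 124 normalized counts for Esrp2 and 705 for Esrp1. The day 0 libraries held 261, 629 and 422 normalized counts of Esrp2, the day 2 libraries 494, 427 and 372, and the day 3 libraries 251, 239 and 157. On day 4 they held 115, 73.0 and 39.0 in GFP-negative cells and 8.47, 18.3 and 13.3 in GFP-positive cells. On day 5 they held 120.2, 62.3 and 105 in GFP-negative cells and 16.0, 2.96 and 20.04 in GFP-positive cells. The gates did not overlap on day 4 or day 5, while days 4 and 5 overlapped within each gate.

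Esrp2 did not share the early rise of Esrp1: its day 3 mean was 216 ± 51.3 and its day 0 mean 437 ± 185, a difference of -0.96 ± 0.49 (adjusted p = 0.122; -1.28 with adjusted p = 0.0486 without day 0 replicate 1). Its largest step was from day 3 to day 4 GFP-positive cells, a difference of -3.95 ± 0.49 (adjusted p = 1.27e-06, called). From day 4 to day 5 in these cells the difference was -0.29 ± 0.49 (adjusted p = 0.849), so no further change was detectable at the low counts of these libraries. Over the whole course, day 5 GFP-positive cells had 2.97% of the day 0 mean, a difference of -5.20 ± 0.49 (adjusted p = 7.27e-09, called), or -5.52 without day 0 replicate 1 (called). In day 5 GFP-negative cells 21.9% remained, a difference of -2.14 (adjusted p = 0.00076, called), or -2.47 without day 0 replicate 1 (called). This last call was lost under 20 of 32 alternatives, among them without day 0 replicate 2 or 3 (adjusted p of 0.00651 and 0.00295) and without any of the 3 day 5 GFP-negative libraries (0.0013, 0.00669 and 0.00216). Exons of Esrp2 overlap Nfatc3 on the opposite strand, which had a mean of 4594 normalized counts, and the strandedness of the counting is not given in the sources used here.

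Between gates, both Esrp genes were lower in GFP-positive cells. On day 4 the difference was -1.11 ± 0.25 for Esrp1 (adjusted p = 0.00271) and -2.34 ± 0.49 for Esrp2 (adjusted p = 0.00156), neither of them called. Esrp2 was called on day 4 without day 4 GFP-negative replicate 3 (-2.75, adjusted p = 0.000885), and also without day 0 replicate 1 or day 5 GFP-positive replicate 2 or 3 (adjusted p of 0.000842, 9.25e-05 and 0.000947), which enter only the estimate of the spread. On day 5 it was -2.89 ± 0.25 for Esrp1 (adjusted p = 2.08e-08) and -3.05 ± 0.49 for Esrp2 (adjusted p = 8.6e-05), both called. The call of Esrp2 was lost in the fit of only the groups compared (adjusted p = 0.0187). These were the only members called in that comparison, 2 of 10, where 5.01% of all genes were called and 4.61% were called lower. The change of the gate difference from day 4 to day 5 was -1.78 ± 0.35 for Esrp1 (adjusted p = 0.0106, not called) and -0.71 ± 0.69 for Esrp2 (adjusted p = 0.853). Esrp1 was the only member past an adjusted p of 0.05 in this test, which 1.10% of all genes passed, and without day 0 replicate 1 its value was called (adjusted p = 3.58e-06), as it was in the fit of only the groups compared (adjusted p = 0.000508).

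Several lists of cell type markers also differed between the gates. The 6 epithelial markers (Cdh1, Epcam, Cldn6, Cldn7, Krt8 and Krt18) summed to between 26366.9 and 35936.6 on day 0 and between 58092.7 and 62392.6 on day 3. On day 5 they summed to between 12163.3 and 17973.5 in GFP-negative cells and between 3362.4 and 3469.6 in GFP-positive cells. In the day 5 gate comparison, where 4.61% of all genes were called lower, 4 of the 6 were called lower in GFP-positive cells. Krt8 (-1.81) and Krt18 (-1.05) were the exceptions, and none of the 6 was at 0 in its group mean. Of the 6 pluripotency markers all were called lower in GFP-positive cells on day 5, and their sums were 409 to 539.8 there and 6037.3 to 7296.1 in GFP-negative cells. All 7 mesendoderm markers were also called lower, with sums of 279 to 487 and 5209.2 to 6118.9. Of 4 mesenchymal markers, Pdgfra (-2.12) and Twist1 (-2.36) were called lower, with list sums of 18900.0 to 22980.8 in GFP-positive cells and 23760.1 to 24624.1 in GFP-negative cells. Of 4 endothelial markers, Tek (-2.37) and Cdh5 (-4.38) were called lower, with sums of 726 to 891 and 1393.6 to 2074.7. Neurod1 (-3.04) and Isl1 (-1.95) of 8 neuronal markers, and Fabp7 (-2.77) of 5 neural progenitor markers, were also called lower. Tfap2a, of surface ectoderm, was lower without being called (-1.41, adjusted p = 0.000945). The part of these cells in the Esrp differences between gates was not tested.

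Among other regulators of the epithelial state, Rbm47, an RNA-binding protein of epithelia, had the same direction. Its day 0 mean was 1395 ± 839.5, and on day 5 it was 228 ± 4.99 in GFP-negative and 18.2 ± 6.90 in GFP-positive cells, the latter differing from day 0 by -5.99 (adjusted p = 2.66e-11, called). Rbm38, which also binds RNA in epithelia, had a difference of -0.10 (adjusted p = 0.687). Of 8 transcriptional regulators connected with these genes in the literature, 5 were called lower and 2 higher in day 5 GFP-positive cells against day 0, a comparison in which 26.2% of all genes were called. Lower were the epithelial factors Grhl2 (-5.63), Ovol2 (-5.18) and Ovol1 (-4.66), together with Snai1 (-2.54) and Rest (-1.87), the repressor of neural genes. Higher were the mesenchymal and neural factors Zeb2 (4.11) and Zeb1 (2.06), while Snai2, at 1.28 with an adjusted p of 0.00288, rose without being called. There were again 5 lower and 2 higher without day 0 replicate 1. Zeb2 had means of 189 ± 81.3 on day 0, 856 ± 22.8 on day 3 and, in GFP-positive cells of day 5, 3100.2 ± 391. Zeb1 first fell, from 715 ± 186 on day 0 to 188 ± 48.5 on day 3 (-1.91, adjusted p = 2.23e-07, called), and then reached 2921 ± 396 in GFP-positive cells of day 5. Between the day 5 gates Grhl2 (-2.78), Ovol2 (-3.29) and Snai1 (-3.13) were called lower in GFP-positive cells. Zeb1 (0.57, adjusted p = 0.0743) and Zeb2 (0.47, adjusted p = 0.36) did not pass there.

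**Figure D2:**
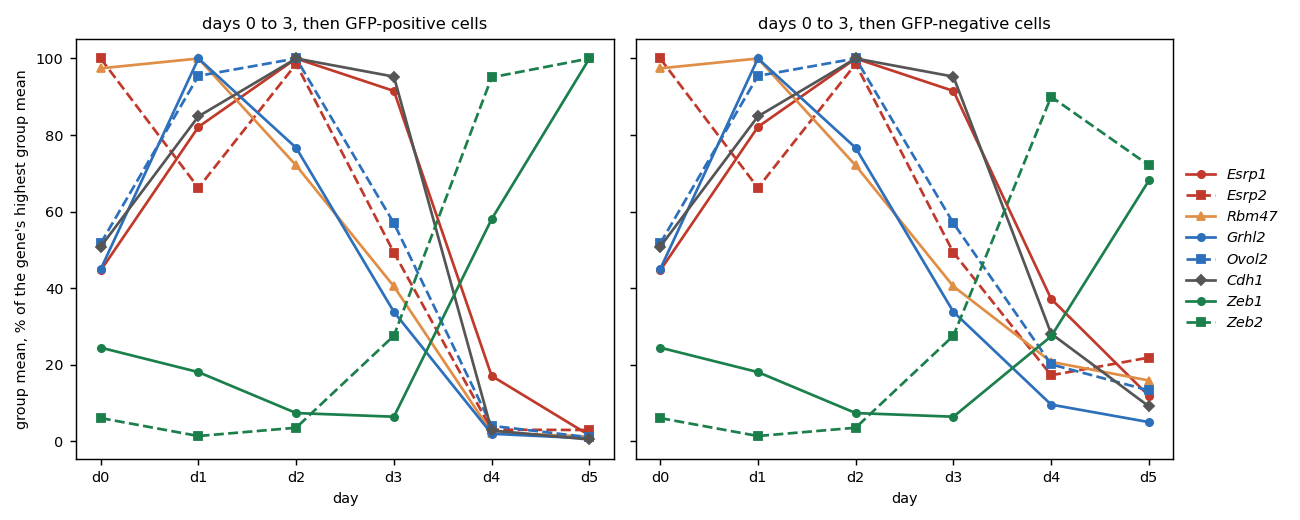
Group means as a percent of each gene's highest group mean (vertical axis) by day, for days 0 to 3 followed by GFP-positive cells (left) or GFP-negative cells (right). Esrp1 ends at 1.59% of its highest mean in GFP-positive cells and at 11.9% in GFP-negative cells, while Zeb1 and Zeb2 have their highest means in day 5 GFP-positive cells.

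Ptbp1 and Ptbp2 encode polypyrimidine tract-binding proteins, and Ptbp2 was higher relative to Ptbp1 in day 5 GFP-positive cells than on day 0. Each gene has a 34-base exon whose skipping gives a transcript annotated for nonsense-mediated decay, and Ptbp1 protein is known to promote this skipping in Ptbp2, which keeps Ptbp2 protein low outside the nervous system. The exons are shown because of that link, and their transcripts are from GENCODE M21 (GRCm38, the build also called mm10). The Ptbp1 exon lies at chr10:79862014-79862047 on the plus strand and is exon 9 of 13 in the longest coding transcript. The Ptbp2 exon lies at chr3:119724612-119724645 on the minus strand and is exon 10 of 14. They are written 5′ to 3′, and capitals mark the 8 positions at which they differ, the other 26 being identical.
Ptbp1: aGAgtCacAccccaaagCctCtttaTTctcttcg
Ptbp2: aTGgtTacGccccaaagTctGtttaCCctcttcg
In the annotation 2 transcripts of Ptbp1 and 2 of Ptbp2 skip the exon, all of them of the decay class. The values here are sums per gene, so inclusion of either exon was not measured.

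Ptbp1 (chr10:79854427-79864771, plus strand) was the most abundant member per kilobase in every group. Its libraries held 25816, 47169 and 39761 normalized counts on day 0, 39353, 40169 and 39167 on day 2, and 32486, 34036 and 31861 in day 5 GFP-positive cells. The day 0 libraries spread over the values of all other groups. Day 5 GFP-positive cells differed from day 0 by -0.15 ± 0.15 (adjusted p = 0.381), and no comparison passed an adjusted p of 0.05. Without day 0 replicate 1, the lowest Ptbp1 library, the difference was -0.40 ± 0.09 (adjusted p = 0.000896), and that of day 5 GFP-negative cells from day 0 was -0.54 ± 0.09 (adjusted p = 4.76e-05). A decline of this size is therefore seen or not depending on a single library. Exons of Ptbp1 overlap Plppr3 on the opposite strand, which reached at most 3607 normalized counts.

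Ptbp2 (chr3:119718742-119784466, minus strand) rose over the first days and stayed high. Its libraries held 2164, 2074 and 2159 normalized counts on day 0, 3339, 3580.2 and 3563 on day 2, 4133, 5178 and 5743 on day 3, and 6662, 7694 and 6862 in day 5 GFP-positive cells. All sorted libraries of days 4 and 5 lay above every library of days 0 to 2. The GFP-positive libraries of both days also lay above every day 3 library, while the GFP-negative ones overlapped them. Group means rose from 2132 ± 50.8 on day 0 to 5018 ± 817 on day 3, by 1.22 ± 0.14 (adjusted p = 3.38e-07, not called; 1.23 without day 0 replicate 1). Against day 0 the rise was 1.73 ± 0.14 in day 5 GFP-positive cells (3.32-fold, adjusted p = 5.34e-10, called) and 1.43 ± 0.14 in GFP-negative cells (2.72-fold, adjusted p = 1.43e-08, not called). These were 1.74 (called) and 1.45 (not called) without day 0 replicate 1. Without day 5 GFP-negative replicate 1 the latter was 1.53 and called (adjusted p = 4.15e-08), and under quantile normalization it was 1.59 and called (adjusted p = 7e-09). The gates did not differ past an adjusted p of 0.05 on day 4 (0.06 ± 0.14, adjusted p = 0.849) or on day 5 (0.29 ± 0.14, adjusted p = 0.18).

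Per kilobase, Ptbp2 was 5.09% ± 1.74 (SD, n = 3) of Ptbp1 on day 0, 7.41% ± 0.263 on day 2, 11.6% ± 2.83 on day 3 and, in GFP-positive cells of day 5, 18.1% ± 0.880. The day 0 libraries ranged from 3.69% to 7.03% and the day 5 GFP-positive libraries from 17.2% to 19.0%, with no overlap. The 7.03% was that of day 0 replicate 1, and replicates 2 and 3 of day 0 had 3.69% and 4.56%. Day 4 and day 5 groups overlapped one another.

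**Figure D3:**
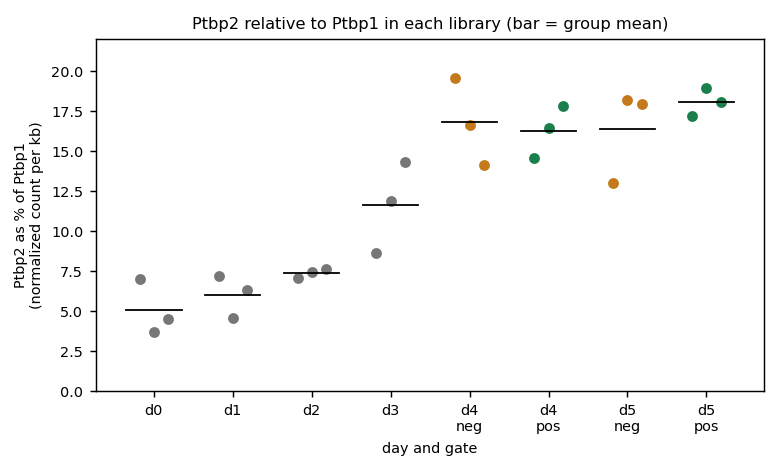
Ptbp2 as a percent of Ptbp1, both in normalized counts per kilobase (vertical axis), in each library by day and gate; bars are means of 3. The day 0 libraries reach at most 7.03% and the day 5 GFP-positive libraries at least 17.2%.

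The Rbfox genes, which encode RNA-binding proteins with a shared recognition motif, each had a different pattern. Rbfox1 (chr16:5885355-7411526, plus strand) was low and transient. Its libraries held 3.87, 21.1 and 14.8 normalized counts on day 0, 28.4, 25.6 and 33.3 on day 1, and 85.0, 125 and 112 on day 2. They held 54.1, 48.7 and 48.1 on day 3. In GFP-positive cells they held 53.9, 61.0 and 56.3 on day 4 and 15.9, 9.26 and 3.96 on day 5. Every day 2 library was above every other library, and the day 5 GFP-positive cells returned to the range of day 0. From day 1 to day 2 it rose by 1.84 ± 0.45 (adjusted p = 0.00652, not called), and from day 0 to day 3 by 2.10 ± 0.45 (adjusted p = 0.000645, called). From day 4 to day 5 in GFP-positive cells it fell by 2.61 ± 0.45 (adjusted p = 0.00043, called). Between the day 5 gates it was lower in GFP-positive cells (-1.81 ± 0.45, adjusted p = 0.00627, not called).

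Both calls of Rbfox1 were lost when single libraries were left out and under another fit. In fits of only the groups compared their adjusted p were 0.0375 for the rise and 0.0188 for the fall. The rise to day 3 was 1.45 without day 0 replicate 1 (adjusted p = 0.00371) and lost its call without any day 3 library (adjusted p of 0.00252 to 0.0032). The fall from day 4 to day 5 lost its call without any day 4 GFP-positive library or day 5 GFP-positive replicate 2 or 3, the adjusted p then lying between 0.00194 and 0.00467. Conversely, without day 0 replicate 1 the rise to day 2 and the difference between the day 5 gates were called (adjusted p of 0.000498 and 0.000481).

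Rbfox2 (chr15:77078990-77307004, minus strand) was the abundant member of the family and the most even of the 10 genes in this course. Group means lay between 4702 ± 542, for GFP-positive cells of day 5, and 5692 ± 233, for GFP-negative cells of day 4, and every pair of neighbours in the order of means overlapped. No comparison passed an adjusted p of 0.05, and day 5 GFP-positive cells differed from day 0 by -0.23 ± 0.11 (adjusted p = 0.0738). Without day 0 replicate 1 this was -0.37 ± 0.09 (adjusted p = 0.00186).

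Rbfox3 (chr11:118489762-118911597, minus strand), whose protein is the neuronal nuclear antigen NeuN, rose early. Its libraries held 36.8, 53.1 and 44.0 normalized counts on day 0, 123, 77.3 and 64.1 on day 1, 230.5, 209 and 197 on day 2, and 250.5, 252 and 227 on day 3. Day 0, day 1 and day 2 did not overlap. It rose by 0.92 ± 0.20 on the first day (adjusted p = 0.00401) and by 1.31 ± 0.20 on the second (adjusted p = 9.27e-05), neither called, and over the first 3 days together by 2.43 ± 0.20 (5.44-fold, adjusted p = 3.36e-09, called). Without day 1 replicate 1 the second step was 1.58 and was called (adjusted p = 8.41e-06). On day 5 the libraries held 546, 414 and 391 in GFP-negative cells and 318, 277 and 331 in GFP-positive cells. The gates did not overlap on that day, but the difference of -0.53 ± 0.20 did not pass (adjusted p = 0.079). Rbfox3 had the largest rise of the members against day 0, by 3.31 in day 5 GFP-negative cells (10.1-fold, adjusted p = 1.04e-11) and by 2.77 in GFP-positive cells (6.92-fold, adjusted p = 9.68e-11), both called. These were 3.18 and 2.65 without day 0 replicate 1, and the rise to day 3 was then 2.30, all 3 called.

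Neuronal markers moved in both directions. The 8 markers (Tubb3, Dcx, Map2, Stmn2, Snap25, Syp, Neurod1 and Isl1) summed to between 9321.0 and 13604.6 on day 0, between 4429.0 and 5043.6 in day 5 GFP-negative cells and between 3326.3 and 3778.7 in day 5 GFP-positive cells. Against day 0, where 11.2% of all genes were called higher in day 5 GFP-positive cells and 14.9% lower, 2 of the 8 were called higher in these cells (Map2 by 2.31 and Snap25 by 2.37) and 3 lower (Neurod1, Stmn2 and Tubb3), with the same counts without day 0 replicate 1. In day 5 GFP-negative cells, where Rbfox3 was highest, 4 were called higher than on day 0 (Map2 by 2.68, Isl1 by 2.59, Snap25 by 2.56 and Syp by 1.81) and 3 lower (Tubb3, Neurod1 and Stmn2), with a median of 1.65. Of all genes 11.3% were called higher and 10.4% lower there. The numbers there were 4 and 2 without day 0 replicate 1, Stmn2 being lost. Dcx, which marks young neurons, rose there by 1.49 (adjusted p = 0.0369, not called), from a mean of 16.6 normalized counts on day 0 to 23.4. Of 5 neural progenitor markers, 3 were called higher in day 5 GFP-positive cells than on day 0, and again 3 without day 0 replicate 1. With all libraries they were Hes5 (4.55), Nes (2.40) and Sox1 (2.10). Of the other two, Fabp7 rose (1.11, adjusted p = 0.0367) and Sox2 fell (-0.87, adjusted p = 1.14e-05), neither called.

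Srrm4 (chr5:116439275-116591817, minus strand), a regulator of neural microexons also called nSR100, peaked on day 4. Its libraries held 51.0, 89.3 and 129 normalized counts on day 0, 161, 196 and 199 on day 3, 493, 464 and 325 in day 4 GFP-negative cells and 449, 449.8 and 504 in day 4 GFP-positive cells. On day 5 they held 279, 239.6 and 270.3 in GFP-negative cells and 174, 217 and 168 in GFP-positive cells. Every day 4 library was above every library of the other days, in both gates. From day 3 it rose by 1.34 ± 0.24 to day 4 GFP-positive cells (adjusted p = 0.000111) and by 1.18 ± 0.24 to GFP-negative cells (adjusted p = 0.00108), neither called. From day 4 to day 5 it then fell by 1.33 ± 0.24 in GFP-positive cells (adjusted p = 0.000602, not called), and the difference in GFP-negative cells was -0.68 ± 0.24 (adjusted p = 0.0766). The change of the gate difference between the days was -0.66 ± 0.34 (adjusted p = 0.581). Against day 0 it was called higher in day 5 GFP-negative cells (1.63, adjusted p = 4.87e-06), a call that was lost without day 0 replicate 1 (1.28, adjusted p = 8.5e-06) and in the fit of only the groups compared (adjusted p = 0.00771). Srrm4 also rose against day 0 by 1.13 on day 3 (adjusted p = 0.000569) and by 1.13 in day 5 GFP-positive cells (adjusted p = 0.000298), neither called. Without day 0 replicate 1 these rises were 0.77 and 0.78. Exons of Srrm4 overlap the antisense gene Srrm4os, which had a mean of 35.6 and at most 127 normalized counts.

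Nova1 (chr12:46694517-46818929, minus strand) and Nova2 (chr7:18925888-18965319, plus strand) encode neuronal KH-domain proteins, first known as autoimmune antigens. Nova1 held 356, 223 and 335 normalized counts on day 0, 291, 500.2 and 573 on day 3, 999.8, 829 and 579.6 in day 4 GFP-negative cells and 1079, 1225 and 1165 in day 4 GFP-positive cells. On day 5 it held 1018, 1405 and 1252 in GFP-negative cells and 1385, 1860.4 and 1335 in GFP-positive cells. Every library of days 4 and 5 was above every library of days 0 to 3, the lowest of them by a small margin. From day 3 Nova1 rose by 1.40 ± 0.26 to day 4 GFP-positive cells (adjusted p = 0.000156, not called), its largest step. Without day 3 replicate 3 that rise was 1.59 and was called (adjusted p = 0.000128). Against day 0 the rise was 2.34 ± 0.26 in day 5 GFP-positive cells (5.01-fold, adjusted p = 7.6e-08) and 2.02 ± 0.26 in GFP-negative cells (4.02-fold, adjusted p = 8.01e-07), both called. They were 2.46 and 2.15 without day 0 replicate 1, both called.

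For Nova2, the libraries held 187, 399 and 228 normalized counts on day 0, 315, 356 and 340.4 on day 2, and 643, 535 and 452 on day 3, and the day 3 libraries did not overlap those of earlier days. From day 0 to day 3 it rose by 1.06 ± 0.20 (adjusted p = 0.000166, not called), where Nova1 differed by 0.55 ± 0.26 (adjusted p = 0.0896). When day 0 replicate 1 was left out both passed an adjusted p of 0.05, Nova2 at 0.83 (adjusted p = 0.000858) and Nova1 at 0.68 (adjusted p = 0.0496). The difference between these 2 changes was not tested. In day 5 GFP-negative cells the mean of Nova2 was 967 ± 90.8, in GFP-positive cells 763 ± 95.8. Against day 0 these were rises by 1.90 ± 0.20 (adjusted p = 4.71e-08) and 1.56 ± 0.20 (adjusted p = 6.28e-07), both called. The second call was lost without day 0 replicate 1 (1.33), day 0 replicate 3 (1.47) or day 5 GFP-positive replicate 1 (1.46), each of which moved it below the fold threshold, and under quantile normalization (1.44). The first call was kept without day 0 replicate 1 (1.67). In fits of only the groups compared both calls were lost (adjusted p of 0.00177 and 0.00452). Between the gates neither Nova gene passed an adjusted p of 0.05 on day 4 or day 5.

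**Figure D4:**
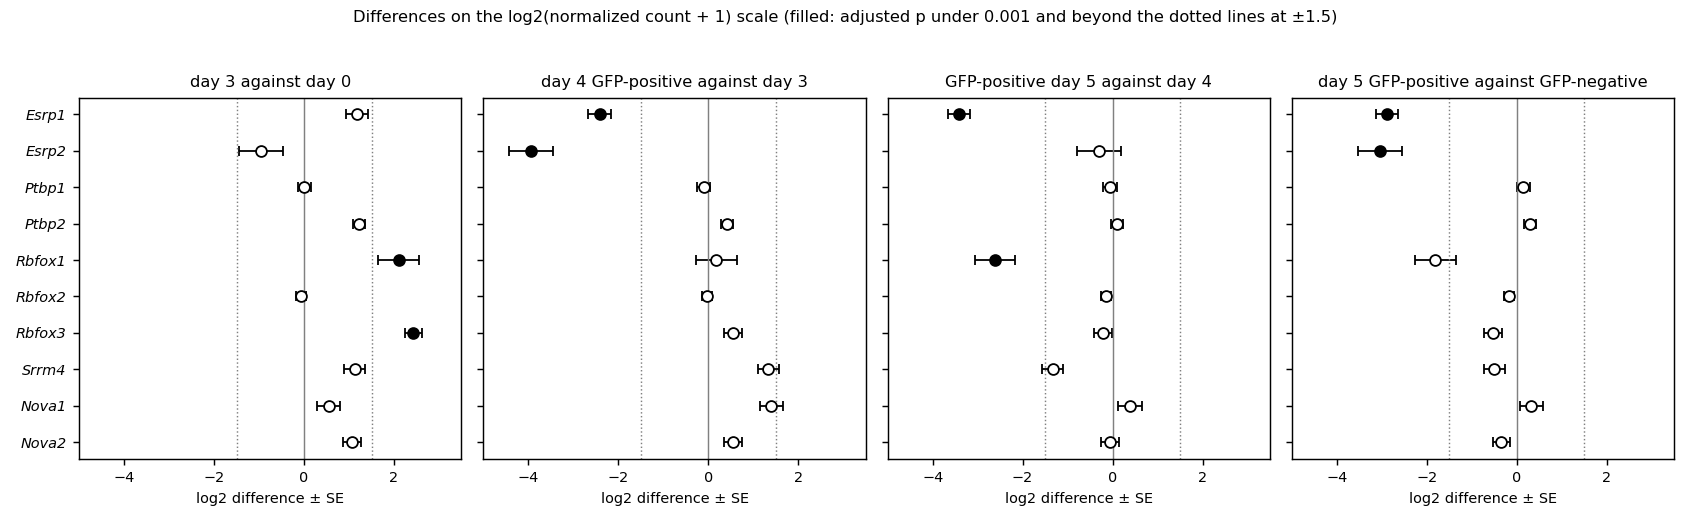
Log2 differences of the 10 members (horizontal axis, with standard errors) in 4 comparisons; filled points are called and dotted lines mark 1.5 in either direction. The 2 Esrp genes are called lower at the step from day 3 to day 4 GFP-positive cells and between the day 5 gates, and no neural regulator is called in those 2 panels.

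Counted by comparison, no member was called at any of the 3 daily steps from day 0 to day 3, where 0.738%, 1.47% and 1.00% of all genes were called. The adjusted p alone was under 0.05 for 2, 3 and 2 members in these steps, against 10.0%, 16.6% and 14.4% of all genes, and the unadjusted p of limma for 4, 5 and 3 members, against 22.5%, 28.2% and 28.2%. From day 0 to day 3, 2 of 10 members were called, both higher (Rbfox1 and Rbfox3), against 12.0% of all genes in either direction and 5.91% higher. From day 3 to day 4 GFP-positive cells 2 were called, both lower (Esrp1 and Esrp2), against 10.7% in either direction and 7.36% lower. At the looser threshold 7 members passed there, Ptbp2, Rbfox3, Srrm4, Nova1 and Nova2 rising, against 37.9% of all genes. For GFP-negative cells no member was called against day 3 (2.88% of all genes). There 4 passed the looser threshold (18.5%) and 6 had an unadjusted p under 0.05 (29.7%). The day 4 gates gave no call (3.96% of all genes), and 3 members had an unadjusted p under 0.05 there (25.7%). From day 4 to day 5, 2 members were called in GFP-positive cells (1.49% of all genes) and 1 in GFP-negative cells (1.27%).

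Against day 0, 6 members were called in day 5 GFP-positive cells, where 26.2% of all genes were called. Ptbp2, Rbfox3, Nova1 and Nova2 were higher, as were 11.2% of all genes, and Esrp1 and Esrp2 lower, as were 14.9%. In day 5 GFP-negative cells 6 were called as well (21.7% of all genes), Rbfox3, Srrm4, Nova1 and Nova2 being higher (11.3% of all genes) and the Esrp genes lower (10.4%). Both comparisons share the day 0 libraries. For the change of the gate difference no member was called (0.109% of all genes), and 3 had an unadjusted p under 0.05 (9.40%). Without day 0 replicate 1, 1 member was called in day 3 against day 0 (Rbfox3), and 5 each in day 5 GFP-positive and GFP-negative cells against day 0, where Nova2 and Srrm4 respectively were lost. The median log2 difference of the 10 members in day 5 GFP-positive cells against day 0 was 0.49 (0.20 without day 0 replicate 1), and that of all genes was -0.06, a value that quantile normalization moved by 0.15.

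A further 18 neural splicing regulators were tested in day 5 GFP-positive cells against day 0. Of these, 8 were called higher (11.2% of all genes) and 2 lower (14.9%), with a median of 0.72. The largest differences were those of Rbm11 (4.88), Rbm24 (4.46), Celf3 (4.10) and Khdrbs2 (3.04). Rbm11 had means of 8.61 ± 4.58 on day 0, 80.8 ± 12.8 on day 3 and, in GFP-positive cells of day 5, 271 ± 82.8. Elavl3 (-1.97) and Celf6 (-1.98), both known from neurons, were the 2 that were called lower. The counts were again 8 and 2 without day 0 replicate 1, with a median of 0.45. Between the day 5 gates limma called none of the 18 (5.01% of all genes), and 7 had an unadjusted p under 0.05, as did 26.3% of all genes. Of these, Mbnl2 (-0.67) and Elavl4 (-0.89) were lower past an adjusted p of 0.05, which 16.0% of all genes passed in either direction. Of the general splicing factors, none of 13 SR proteins and none of 20 hnRNP proteins was called in day 5 GFP-positive cells against day 0. Their medians were 0.30 and 0.25, and 26.2% of all genes were called there. The unadjusted p of limma was under 0.05 for 8 SR proteins and 10 hnRNP proteins, and for 64.8% of all genes. At the looser threshold 6 SR proteins were higher and 2 lower, and 8 hnRNP proteins were higher and 1 lower, against 61.4% of all genes. The largest of these differences, with all libraries, was that of Hnrnph3, a rise by 1.28 (adjusted p = 5.65e-09). No SR or hnRNP protein was called without day 0 replicate 1 either. In that fit 5 SR proteins were higher and none lower at the looser threshold, and 10 hnRNP proteins were higher and 1 lower.

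**Figure D5:**
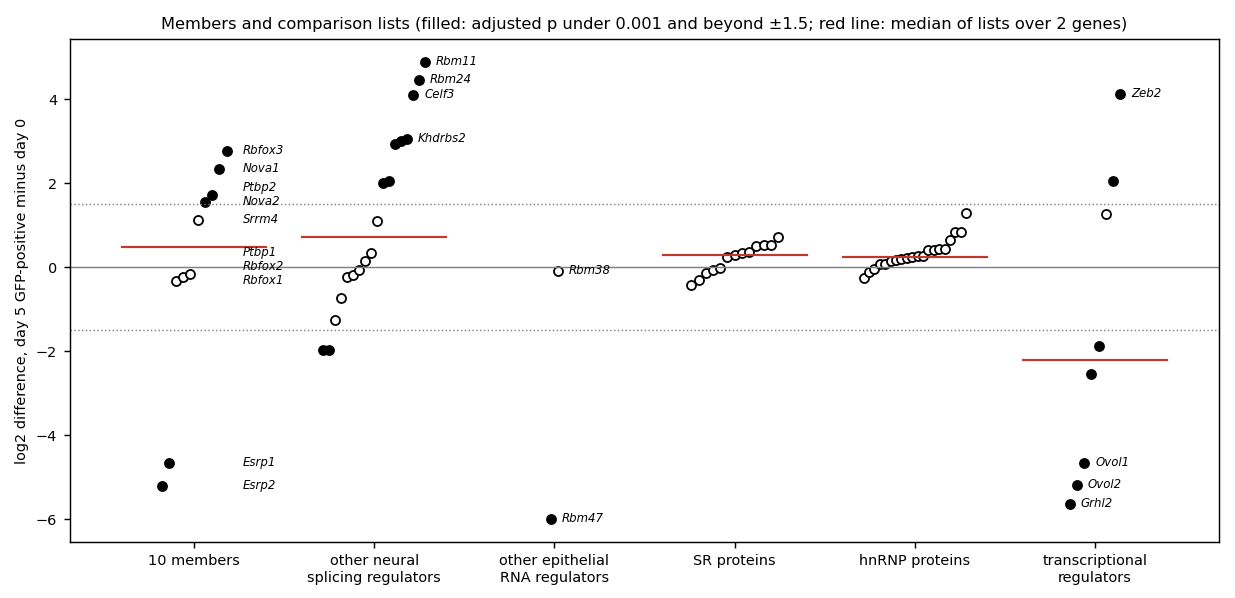
Log2 difference between day 5 GFP-positive cells and day 0 (vertical axis) of the 10 members and 5 comparison lists; each point is a gene, filled when called, and the red line is the median of a list. SR and hnRNP proteins stay within 1.5 in either direction, while the Esrp genes, Rbm47, Grhl2, Ovol1 and Ovol2 lie below -4.

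The genes whose log2 values were most alike those of a member over the 24 libraries were found by Pearson correlation, given as a description because libraries of a group share their day and gate. For Esrp1 they were Foxh1 (0.974) and Arhgef19 (0.970), for Esrp2 Crip2 (0.962) and Slc28a1 (0.961), for Ptbp1 Dhx8 (0.943) and Ddx23 (0.942), and for Ptbp2 Traf6 (0.982) and E2f6 (0.980). For Rbfox1 Cgn (0.861) was among them. For Rbfox2 they were Dlg5 (0.790) and Slc6a6 (0.752), and for Rbfox3 Sh3bp2 and Tspan7 (both 0.976). For Srrm4 they were Sall3 (0.921) and Spire1 (0.918), for Nova1 Usp40 (0.957) and Zfp711 (0.954), and for Nova2 Rgma and Col6a1 (both 0.970).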

How the data were processed

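RNA from 24 libraries of sorted mouse cells was sequenced, 3 libraries in each of 8 groups of day and gate, with the groups taken from the sample titles. The authors quantified transcripts with kallisto 0.43.1 against mm10 and deposited one table of 49705 entries holding DESeq2 normalized counts, a signal that is no longer whole reads. The strandedness of the counting and the annotation release are not given in the sources used here. The columns of the authors' own calls (genes higher or lower between stages, and housekeeping genes) were not used, and 0 per-sample columns were left out.

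Deposited totals, given in the results, are sums of normalized signal, so library depth is known only through the worth of a single read. Multiples of that worth gave whole reads, within 0.1, for only 45.5% to 75.8% of low values up to 20 reads, so no count model was run. The 21005 entries that reached 10 normalized counts in 3 or more libraries were tested on log2(value + 1) with limma 3.58.1 (R 4.3.3, eBayes with a trend), in a single fit of 8 group means with 13 contrasts and Benjamini-Hochberg adjustment within each contrast. Of these entries 175 repeat the symbol of another. On data simulated for the day 5 comparison of the gates, over 21005 genes, the call recovered 1 of 50 genes changed by 1 on the log2 scale, 29 of 50 changed by 2, 43 of 50 by 3 and 47 of 50 by 4. None of the 20805 unchanged genes was called.

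The 10 members and the comparison lists were chosen with earlier results of these data known. The rule for naming genes took all members, the 2 genes most correlated with each member whose highest group mean was at least 100, and up to 4 genes per comparison list with the largest difference between day 5 GFP-positive cells and day 0. Elavl3, Celf6, Mbnl2, Elavl4, Zeb1, Snai1, Snai2, Rest, the genes overlapping members and the single markers given with values were named outside this rule, after their values were seen. A single gene that the rule names for Rbfox1 is not reported here. Qki, which stood in the list of neural regulators, was not analysed here. Exon sequences and positions come from GENCODE M21. Per-kilobase levels use the longest coding transcript of each gene. The alternatives were other pseudocounts, filters, variance moderation, quantile normalization, thresholds, a fit of only the groups compared, a replicate block, and leaving out each library in turn. The study describes the libraries of a group as biological replicates of the organoid culture, all from a single line.

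The replicate numbers run from 1 to 3 in every group. Over 28 pairs of groups, deviations from the group means of libraries with the same number correlated above 0.1 throughout in 1 pair, so the numbers were not taken to pair libraries.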

Additional observations from a re-analysis of the deposited data

Results flagged for a closer look

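The fall of Esrp1 from day 4 to day 5 differed between the gates. The difference between GFP-positive and GFP-negative cells changed by -1.78 ± 0.35 (log2) between the days (limma interaction contrast, adjusted p = 0.0106). All 3 GFP-positive libraries lay below all 3 GFP-negative libraries on both days. In the same contrast the 6 epithelial markers lay between -1.01 and -0.46, with a median of -0.79. None of them passed an adjusted p of 0.05 with limma, and 4 had an unadjusted p under 0.05, as did 9.40% of all genes. The medians of the pluripotency and mesendoderm markers were -0.57 and -0.16. The part of these cells in the value of Esrp1 was not tested.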

How the results depend on the processing

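Of 21 member calls in the 13 comparisons, 12 kept their call under all 32 alternatives with the same thresholds, 9 lost it under at least 1, and none of the 34 alternatives reversed a direction. The cause of the changes below was not tested.

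With an adjusted p under 0.05 and no fold threshold, the numbers of members called rose to 2 (day 1 against day 0), 3 (day 2 against day 1), 2 (day 3 against day 2), 6 (day 3 against day 0), 7 (day 4 GFP-positive against day 3), 4 (day 4 GFP-negative against day 3), 2 (day 4 gates) and 1 (change of the gate difference). With an adjusted p under 0.01 and a log2 threshold of 1, they were 1, 2, 6, 4, 2 and 2 for day 1 against day 0, day 2 against day 1, day 3 against day 0, both day 4 gates against day 3 and the day 4 gates. Both looser rules also added Rbfox1 between the day 5 gates and Srrm4 at the GFP-positive step from day 4 to day 5. Against day 0 they added Srrm4 in day 5 GFP-positive cells, and Ptbp2 and Rbfox1 in day 5 GFP-negative cells. A fit of only the groups compared gave 1 for day 3 against day 0 (Rbfox1 lost), the day 5 gates (Esrp2 lost) and the GFP-positive step from day 4 to day 5 (Rbfox1 lost). It gave 0 for the GFP-negative step, 2 for day 5 GFP-negative cells against day 0 and 1 for the change of the gate difference. With no filter, 1 member was called for day 3 against day 0, Rbfox1 being lost. A pseudocount of 5 gave 1 call between the day 4 gates, Esrp2. Leaving out each library in turn gave 0 for day 1 against day 0, for day 3 against day 2 and for day 4 GFP-negative cells against day 3. It gave 0 to 1 for day 2 against day 1, the day 4 gates, the GFP-negative step and the change of the gate difference, and 1 to 2 for day 3 against day 0 and the GFP-positive step. It gave 2 to 3 for day 4 GFP-positive cells against day 3 and for the day 5 gates, 5 to 6 for day 5 GFP-positive cells against day 0 and 4 to 6 for day 5 GFP-negative cells.

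With the replicate block, 1 member was called for day 3 against day 0 (Rbfox1 lost, adjusted p = 0.001) and Esrp2 lost its call in day 5 GFP-negative cells against day 0 (adjusted p = 0.0013). Over all genes the block gave 15 calls for the change of the gate difference, against 23 without it. In 24 of 84 library comparisons a library correlated best with its own number. Over all genes, quantile normalization gave 675 calls between the day 5 gates, against 1052. The effect of depth on these calls was not tested, and the lowest library of Rbfox1 held 3.87 normalized counts and that of Esrp2 2.96.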
